A study of Mus musculus with 9 samples.

Results

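Heat shock and unfolded protein genes encode the chaperones that fold proteins in the cytosol, the mitochondria and the endoplasmic reticulum (ER), with the factors that regulate them. A list of 45 symbols was followed in whole-oviduct RNA of female CD1 mice. Each gene was represented by a probe set that carried its symbol alone, and where several did, by that of highest mean intensity. Such a probe set was found for 42 of the 45 genes, out of 19937 genes with 1 symbol and 28214 probe sets in all. Hsp90ab1 and Hsf1 are not analysed here, and Hspa1b shared its probe set with Hspa1a. The 3 groups were sexually mature females in diestrus, sexually mature females in estrus and sexually immature females of day 21, the group titled as control. Each group had 3 Affymetrix arrays, and each array carried RNA pooled from 5 animals that had received no hormones. The labels do not state how old the mature females were, when in the day oviducts were taken or which day of diestrus was sampled. The values are log2 intensities after robust multi-array averaging (RMA), a scale on which fold changes tend to be compressed.

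Chaperones of the Hsp70 class bind exposed stretches of unfolded proteins in cycles of ATP use, with Hsp40 partners that deliver the client and exchange factors that release it. Hsp90 takes over clients that are nearly folded, steroid hormone receptors among them, with cochaperones such as Stip1 and Fkbp4. Heat shock factors switch on the cytosolic set, while the ER set answers to the sensors of the unfolded protein response through Xbp1, Atf6 and Atf4. In the oviduct, estrogen and progesterone receptors depend on the cytosolic machinery, and secretory cells depend on the ER set.

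The stretches upstream of the start sites show how the cytosolic, mitochondrial and ER genes differ in the letters through which these factors are known to act. RefSeq promoters of the GRCm38.p6 build were at hand for 35 of the 42 measured members, and the 250 bases before each start were searched on both strands. The ER stress element, read as CCAAT, 9 bases of any kind and CCACG, stood in 7 of 13 ER members (Calr, Canx, Creld2, Dnajc3, Hsp90b1, Hspa5 and Pdia6), in 0 of 16 cytosolic members and in 35 of 27025 genes, or 0.13%. The heat shock element with 3 units, in which GAA and TTC alternate with NN between them, stood in 2 of 35 members, the mitochondrial Hspd1 and Hspe1, and in 0.514% of all genes. The shorter form with 2 units, GAANNTTC or TTCNNGAA, which lies within the longer one, stood in those same genes and in 6 of 16 cytosolic members (Dnaja1, Dnajb4, Fkbp4, Hspa1a, Hspb1 and Hsph1), in 0 of 13 ER members and in 14.5% of all genes. These matches are descriptions of letters and were not tested as sites.

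Of the members that passed a test below, Hsph1 and Fkbp4 had a match and are shown with the 2-unit form in capitals. The Stip1 stretch did not hold these letters, which says nothing of the factor. No promoter of Hsp90aa1, which also passed, was at hand, so it was not searched. The sequences run 5′ to 3′ on the gene's strand and end at the base before the start. The Hsph1 stretch lies at chr5:149636337-149636586, minus strand, and its match ended 25 bases before that stretch's end. The Fkbp4 stretch lies at chr6:128438657-128438906, minus strand, with its match 143 bases from the end.
Hsph1: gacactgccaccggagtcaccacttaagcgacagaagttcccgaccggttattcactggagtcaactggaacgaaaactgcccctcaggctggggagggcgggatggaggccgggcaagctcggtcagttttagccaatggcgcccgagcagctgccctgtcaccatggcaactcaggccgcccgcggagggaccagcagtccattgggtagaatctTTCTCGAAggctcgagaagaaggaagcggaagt
Fkbp4: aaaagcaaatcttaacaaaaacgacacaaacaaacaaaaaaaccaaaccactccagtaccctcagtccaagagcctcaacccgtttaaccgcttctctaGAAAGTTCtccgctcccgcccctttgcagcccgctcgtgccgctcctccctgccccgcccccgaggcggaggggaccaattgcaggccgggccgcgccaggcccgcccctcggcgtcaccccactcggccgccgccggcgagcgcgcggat

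Hspe1 and Hspd1 lie head to head on chromosome 1. The 30 bases at chr1:55088053-55088082, plus strand, are shown because they hold the matches that both genes share, here 2 overlapping matches of the 3-unit form in capitals.
Hspe1: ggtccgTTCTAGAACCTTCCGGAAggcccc

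For the ER set, 4 of the 7 genes that hold the ER stress element are shown as examples, with the element in capitals. Hspa5 lies at chr2:34771840-34772089, plus strand. Hsp90b1, with 2 matches, lies at chr10:86705445-86705694, minus strand. Creld2 lies at chr15:88819396-88819645, plus strand, and Dnajc3 at chr14:118937682-118937931, plus strand.
Hspa5: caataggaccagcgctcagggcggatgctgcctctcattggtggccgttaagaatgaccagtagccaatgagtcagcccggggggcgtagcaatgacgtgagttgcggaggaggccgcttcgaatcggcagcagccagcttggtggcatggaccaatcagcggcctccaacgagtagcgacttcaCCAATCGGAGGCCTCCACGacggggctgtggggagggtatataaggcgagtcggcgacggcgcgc
Hsp90b1: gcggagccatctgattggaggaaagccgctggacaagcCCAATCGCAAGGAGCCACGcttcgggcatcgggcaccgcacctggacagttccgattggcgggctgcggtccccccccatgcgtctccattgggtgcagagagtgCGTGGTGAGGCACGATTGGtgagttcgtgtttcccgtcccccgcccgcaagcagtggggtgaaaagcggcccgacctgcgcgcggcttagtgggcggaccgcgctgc
Creld2: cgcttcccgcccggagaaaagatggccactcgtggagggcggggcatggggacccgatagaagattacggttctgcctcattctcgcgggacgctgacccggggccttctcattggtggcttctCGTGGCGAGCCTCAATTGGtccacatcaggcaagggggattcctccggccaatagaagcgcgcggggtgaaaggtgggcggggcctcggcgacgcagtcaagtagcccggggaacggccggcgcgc
Dnajc3: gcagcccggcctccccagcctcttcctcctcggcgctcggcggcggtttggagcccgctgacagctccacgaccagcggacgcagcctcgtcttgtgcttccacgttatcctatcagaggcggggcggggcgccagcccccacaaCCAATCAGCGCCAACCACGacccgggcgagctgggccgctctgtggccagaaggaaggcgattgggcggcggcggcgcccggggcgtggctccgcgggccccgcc

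Across the list, chaperone genes of the cytosol and the ER mostly had lower means in diestrus than in estrus or immature oviduct. Of 42 members, 37 had a lower mean in diestrus than in immature oviduct and 40 a lower mean in diestrus than in estrus. The median log2 difference was -0.23 for diestrus minus immature and -0.30 for diestrus minus estrus, against 0.01 and -0.01 over all probe sets. For estrus minus immature the median was 0.05, with 28 members above 0 and 14 below. These comparisons share arrays pairwise, so they are not independent of each other. The members were chosen with earlier results of these data known, so counts of members beside shares of all probe sets only describe the list. Among all probe sets 46.5% had a lower mean in diestrus than in immature oviduct, and among probe sets whose mean lay above the median of all, as it did for every measured member on each array, 59.2% did. For diestrus against estrus these shares were 53.1% and 53.3%, and for estrus against immature oviduct 45.2% and 58.8%.

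At an adjusted p under 0.05 over all probe sets, from limma with the Benjamini-Hochberg method, 4 of 42 members fell in diestrus against immature oviduct, where 0.705% of all probe sets and 1.24% of the brighter ones fell. They were Hsph1, Hsp90aa1, Stip1 and Fkbp4. In either direction 1% of all probe sets passed in that comparison and 0.159% in diestrus against estrus. Against estrus, 3 of 42 fell, Hsph1, Stip1 and Fkbp4, where 0.0922% of all probe sets and 0.17% of the brighter ones did. No member rose in either comparison, where 0.294% and 0.0673% of all probe sets rose. In estrus against immature oviduct 0 of 42 passed, where 0.0851% of all probe sets did, and 1 member, Hspa1a, had an unadjusted p under 0.05 (2.25% of all probe sets had such a p with a higher value and 4.27% with a lower one). The calls depended on single arrays. In diestrus against immature oviduct, 0 members were called without diestrus 2, without immature 1 or without immature 3, 1 (Stip1) without diestrus 1, 2 (Stip1 and Fkbp4) without immature 2 and 6 without estrus 2. In diestrus against estrus, 0 were called without diestrus 1, diestrus 2, immature 3 or any 1 estrus array, and 1 (Fkbp4) without immature 2. With limma's array weights 14 and 22 members were called in these comparisons, where 1288 and 3331 of all 28214 probe sets were. Those weights rested largely on estrus 3, at 8.16, with diestrus 2 next at 2.16.

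**Figure D1:**
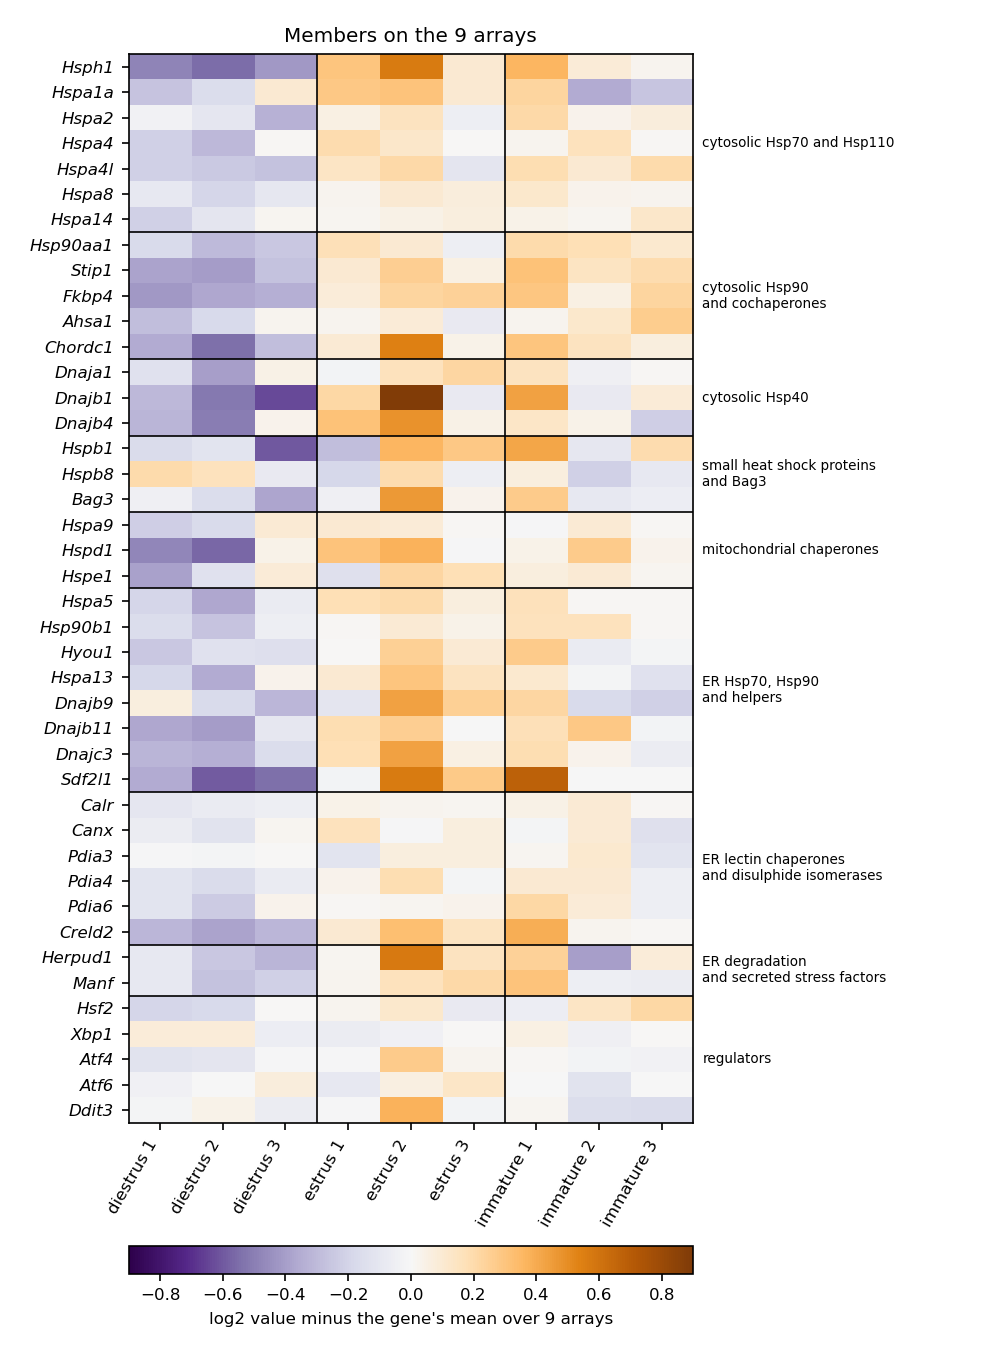
Heat map of 42 members (rows, ordered by compartment) on the 9 arrays (columns: diestrus, estrus, immature). Colour gives the log2 value minus the gene's mean over the 9 arrays, and the cytosolic and ER rows are mostly below 0 on the 3 diestrus arrays, with Dnajb1 at its highest on estrus 2.

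The separation of arrays was broader than the calls. In 21 of 42 members all 3 diestrus arrays lay below all 3 immature arrays, against 10.9% of all probe sets and 18.1% of those with a mean above the median. Likewise 21 of 42 lay lower without overlap in diestrus than in estrus, against 6.85% of all probe sets and 11.2% of the brighter ones. In 18 of 42 members the 3 diestrus arrays lay below all 6 others, which held for 4.47% of all probe sets and 7.87% of the brighter ones. These 18 comprised 8 of 18 cytosolic members (Hsph1, Hspa4l, Hspa8, Hsp90aa1, Stip1, Fkbp4, Chordc1 and Dnajb1) and 10 of 16 ER members (Hspa5, Hsp90b1, Hyou1, Dnajb11, Dnajc3, Sdf2l1, Calr, Pdia4, Creld2 and Manf). Without diestrus 3 this count was 29, and the counts of members apart were 34 against immature oviduct and 33 against estrus. Fewer arrays separate more easily, and the shares over all probe sets were not counted without that array. In estrus against immature oviduct 0 of 42 members had arrays apart, where 3.19% of all probe sets were higher and 6.62% lower without overlap. That count was 15 without immature 1, 7 without estrus 1, 4 without estrus 3 or immature 3, and 1 without estrus 2 or immature 2. For these settings too, separation is easier and the shares over all probe sets were not counted. Since these are extracts of whole tissue, fewer cells of a type and less RNA per cell cannot be told apart.

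The cytosolic Hsp90 machinery held 3 of the 4 genes that fell. Stip1, also called Hop, bridges Hsp70 and Hsp90 during the transfer of clients. Its log2 values were 11.08, 11.06 and 11.19 in diestrus, 11.57, 11.72 and 11.52 in estrus and 11.78, 11.61 and 11.66 in immature oviduct. The diestrus arrays lay below the other 6, while estrus and immature arrays overlapped. Stip1 fell by 0.57 ± 0.07 on the log2 scale (SE) in diestrus against immature oviduct, 1.49-fold in intensity (limma adjusted p = 0.013), and by 0.49 ± 0.07 against estrus (adjusted p = 0.0429).

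Fkbp4, the immunophilin known as Fkbp52 that sits on Hsp90 in steroid receptor complexes, had the same arrangement. It had 10.56, 10.62 and 10.64 in diestrus, 11.06, 11.21 and 11.23 in estrus and 11.27, 11.04 and 11.21 in immature oviduct. The diestrus values spanned less than 0.1 and lay well apart from the others. Fkbp4 fell by 0.57 ± 0.07 against immature oviduct and by 0.56 ± 0.07 against estrus (limma adjusted p = 0.013 and 0.0229), 1.48-fold and 1.47-fold in intensity. The difference of estrus minus immature was -0.01 ± 0.07 (adjusted p = 0.991).

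Hsp90aa1, the stress-responsive form of cytosolic Hsp90, had 12.70, 12.57 and 12.62 in diestrus, 13.04, 12.97 and 12.81 in estrus and 13.07, 13.05 and 12.98 in immature oviduct. Here too the diestrus arrays lay below the other 6. It fell by 0.40 ± 0.07 against immature oviduct (limma adjusted p = 0.0342), and the difference of -0.31 ± 0.07 against estrus did not pass (adjusted p = 0.139). A second of its 3 probe sets differed by -0.44 for diestrus minus immature (adjusted p = 0.0215) and the third by -0.36 (adjusted p = 0.377). Hsp90aa1, Hspa8, Hspd1 and Hspe1 have near-identical pseudogene copies, so which of their probe sets read the gene itself is uncertain.

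Chordc1, a cysteine- and histidine-rich Hsp90 cochaperone, showed differences as large as those of Stip1 with a wider spread. It had 10.34, 10.15 and 10.41 in diestrus, 10.79, 11.24 and 10.73 in estrus and 10.996, 10.85 and 10.77 in immature oviduct. The diestrus arrays lay below the rest, but estrus 2 stood far above the other estrus arrays. The differences were -0.57 ± 0.13 against immature oviduct and -0.62 ± 0.13 against estrus (limma adjusted p = 0.0846 and 0.119). Ahsa1, which stimulates the ATPase of Hsp90, differed by -0.28 ± 0.09 and -0.16 ± 0.09 (adjusted p = 0.214 and 0.694), with overlapping arrays.

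**Figure D2:**
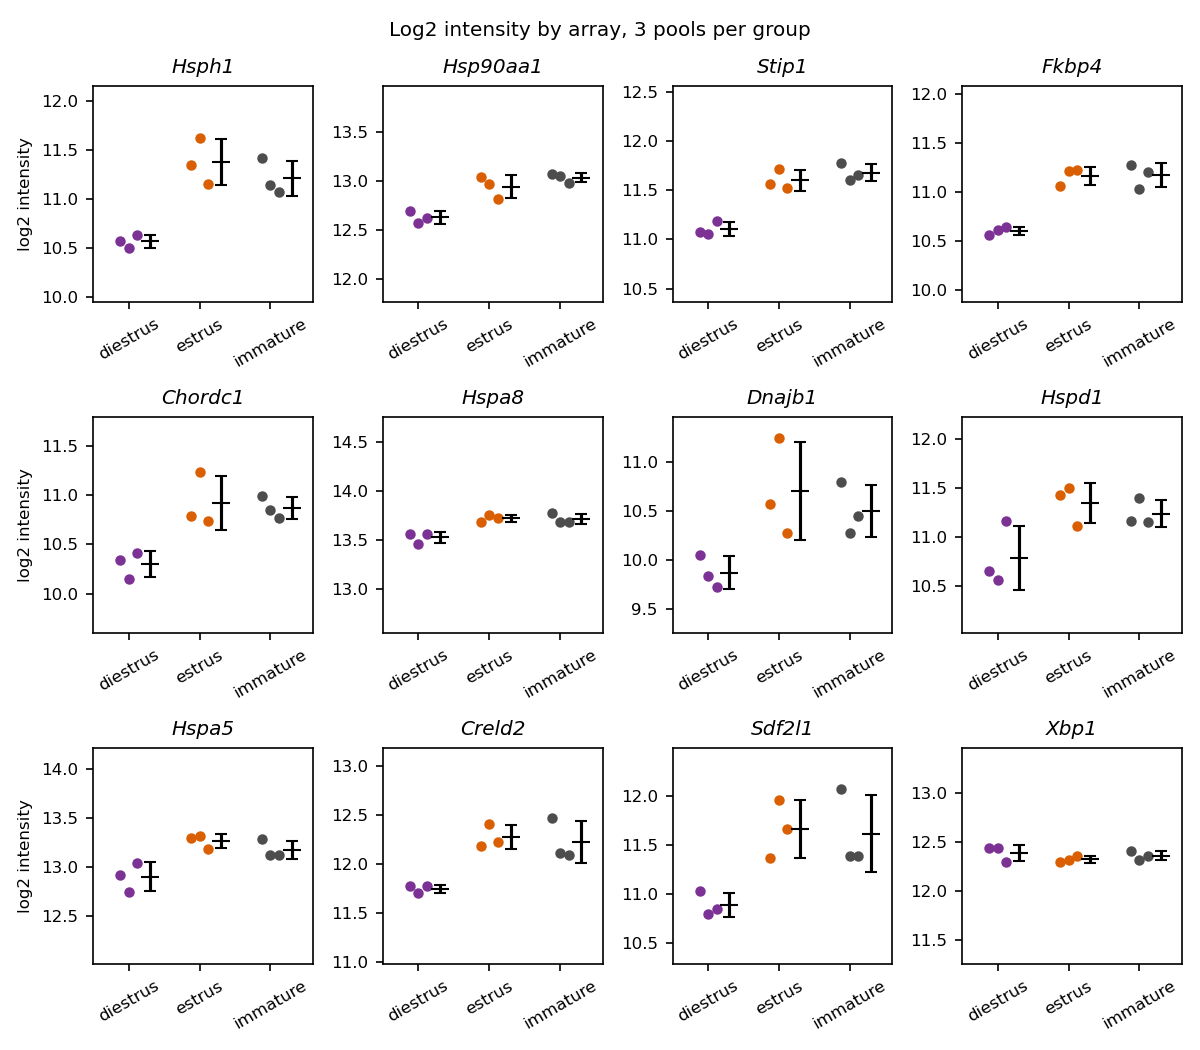
Log2 intensity of 12 members by array, with diestrus, estrus and immature pools from left to right and the group mean ± SD beside the points (n = 3 each). Every panel spans the same range of 2.2 on the log2 axis, and the axes do not start at 0. In Hsph1, Hsp90aa1, Stip1 and Fkbp4 the diestrus points lie below all others, while the groups of Xbp1 overlap.

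Among cytosolic Hsp70 and Hsp110 genes, Hsph1 was the member past the threshold. It encodes Hsp110, an exchange factor for Hsp70 that helps to take protein aggregates apart. Its log2 values were 10.57, 10.50 and 10.63 in diestrus, 11.35, 11.62 and 11.15 in estrus and 11.41, 11.14 and 11.07 in immature oviduct. The diestrus arrays were close together and lay below the rest, and estrus 2 was the highest. Hsph1 fell by 0.81 ± 0.12 against estrus, 1.75-fold in intensity (limma adjusted p = 0.0452), and by 0.64 ± 0.12 against immature oviduct, 1.56-fold (adjusted p = 0.047). Its differences were also the largest in size among the members that passed.

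Hspa4l, a relative of Hsph1, came next to the threshold. It had 10.98, 10.96 and 10.93 in diestrus, 11.33, 11.40 and 11.09 in estrus and 11.38, 11.30 and 11.40 in immature oviduct, again with diestrus below the rest. Its difference was -0.41 ± 0.08 against immature oviduct (limma adjusted p = 0.052) and -0.32 ± 0.08 against estrus (adjusted p = 0.187). Hspa8, the constitutive Hsc70, had 13.57, 13.46 and 13.56 in diestrus, 13.68, 13.76 and 13.73 in estrus and 13.77, 13.69 and 13.68 in immature oviduct. The diestrus arrays lay below the others by a small margin, with differences of -0.19 ± 0.06 from each group (adjusted p = 0.172 against immature oviduct and 0.246 against estrus). The other 2 single-symbol probe sets of Hspa8 both differed by -0.10 for diestrus minus immature. Hspa4, Hspa2 and Hspa14 differed by -0.24, -0.26 and -0.16 for diestrus minus immature (adjusted p between 0.242 and 0.325).

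Hspa1a, the strongly stress-inducible Hsp70, did not have a lower mean in diestrus than in immature oviduct, unlike the others of its group. Against estrus its mean was lower, as theirs were. Its values are given although it falls outside the rule for full values, having been chosen after they were seen. It had 9.27, 9.37 and 9.64 in diestrus, 9.82, 9.84 and 9.63 in estrus and 9.77, 9.18 and 9.28 in immature oviduct. Immature 1 stood apart from the other immature arrays and level with estrus. The difference was 0.02 ± 0.15 for diestrus minus immature, -0.34 ± 0.15 for diestrus minus estrus and 0.36 ± 0.15 for estrus minus immature (limma adjusted p = 0.974, 0.533 and 0.752). The probe set shared by Hspa1a and Hspa1b, whose signals cannot be told apart, had 10.38, 10.36 and 10.55 in diestrus, 10.94, 11.40 and 10.68 in estrus and 11.005, 10.43 and 10.38 in immature oviduct. Its diestrus arrays lay below the estrus arrays (difference -0.58, adjusted p = 0.351) and overlapped the immature ones (difference -0.17, adjusted p = 0.776).

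The Hsp40 partners of the cytosol varied between pools of the same group. Dnajb1, the Hsp40 induced with Hspa1a in the heat shock response, had 10.05, 9.84 and 9.72 in diestrus, 10.57, 11.25 and 10.27 in estrus and 10.79, 10.27 and 10.44 in immature oviduct. Although diestrus lay below all other arrays, the estrus SD of 0.50 was the largest of any member in any group. The differences of -0.83 ± 0.22 against estrus and -0.63 ± 0.22 against immature oviduct did not pass (limma adjusted p = 0.224 and 0.256). Dnajb4 had 11.06, 10.87 and 11.41 in diestrus, 11.69, 11.86 and 11.43 in estrus and 11.51, 11.42 and 11.16 in immature oviduct. Its diestrus arrays lay below those of estrus and overlapped the immature ones (differences -0.55 ± 0.15 and -0.25 ± 0.15, adjusted p = 0.245 and 0.543). Dnaja1, which works with Hspa8, had 11.72, 11.46 and 11.90 in diestrus, 11.83, 12.01 and 12.07 in estrus and 11.998, 11.80 and 11.86 in immature oviduct, and all groups overlapped. The other single-symbol probe set of Dnaja1 lay lower in diestrus than in estrus without overlap (difference -0.41, adjusted p = 0.39). Its diestrus arrays overlapped the immature ones.

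Of the small heat shock proteins, which hold unfolding clients without using ATP, Hspb1 and Hspb8 had differences of opposite sign. Hspb1 had 11.95, 12.004 and 11.52 in diestrus, 11.83, 12.48 and 12.40 in estrus and 12.54, 12.03 and 12.31 in immature oviduct, with its lowest value on diestrus 3. Its difference was -0.47 ± 0.20 against immature oviduct (limma adjusted p = 0.343). Hspb8 differed by 0.17 ± 0.11 against immature oviduct and by 0.11 ± 0.11 against estrus (adjusted p = 0.575 and 0.923). Bag3, which pairs with Hspb8 and Hsp70 in selective autophagy, had 10.39, 10.28 and 10.06 in diestrus, 10.39, 10.89 and 10.46 in estrus and 10.71, 10.35 and 10.37 in immature oviduct, with overlapping groups (adjusted p = 0.559 against immature oviduct and 0.516 against estrus).

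All 3 mitochondrial chaperones had a lower mean in diestrus than in either other group without passing the test, and for each the highest diestrus value was that of diestrus 3. Hspd1, the Hsp60 ring, had 10.64, 10.55 and 11.15 in diestrus, 11.43, 11.49 and 11.11 in estrus and 11.15, 11.39 and 11.15 in immature oviduct. Diestrus 1 and 2 lay below all other arrays and diestrus 3 within the immature range. The differences were -0.56 ± 0.16 against estrus and -0.45 ± 0.16 against immature oviduct (limma adjusted p = 0.246 and 0.254). Without diestrus 3, Hspd1 was among the 5 members called in diestrus against immature oviduct. Hspe1, the Hsp10 lid of that ring, had 10.88, 11.14 and 11.36 in diestrus, 11.14, 11.50 and 11.45 in estrus and 11.34, 11.37 and 11.29 in immature oviduct, and its groups overlapped although it shares its upstream stretch with Hspd1. Hspa9, the mitochondrial Hsp70, differed by -0.17 ± 0.08 against estrus and -0.13 ± 0.08 against immature oviduct (adjusted p = 0.607 and 0.557).

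In the ER, 16 of 16 measured members had lower means in diestrus than in either other group, none passed the threshold, and 11 of 16 had an unadjusted p under 0.05 in each comparison. Over all probe sets, 8.95% had such a p with a lower value in diestrus than in immature oviduct and 5.48% in diestrus than in estrus. The median difference was -0.21 against immature oviduct and -0.32 against estrus. Hspa5, known as BiP, is the Hsp70 of the ER and holds the stress sensors inactive. It had 12.92, 12.74 and 13.04 in diestrus, 13.30, 13.31 and 13.18 in estrus and 13.28, 13.12 and 13.13 in immature oviduct. The diestrus arrays lay below the rest, diestrus 3 by 0.1 or less. The differences were -0.36 ± 0.08 against estrus and -0.28 ± 0.08 against immature oviduct (limma adjusted p = 0.147 and 0.176).

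Partners of BiP had differences up to -0.77. Sdf2l1, which keeps BiP clients from aggregating together with Dnajb11, had 11.03, 10.80 and 10.85 in diestrus, 11.37, 11.96 and 11.67 in estrus and 12.07, 11.39 and 11.39 in immature oviduct. Its diestrus arrays lay below the rest, and immature 1 stood far above the other immature arrays. The differences of -0.77 ± 0.20 against estrus and -0.73 ± 0.20 against immature oviduct had limma adjusted p of 0.19 and 0.136. Dnajc3, an ER Hsp40 also known as p58IPK, had 11.19, 11.17 and 11.35 in diestrus, 11.69, 11.94 and 11.56 in estrus and 11.70, 11.54 and 11.44 in immature oviduct. Diestrus again lay lowest (differences -0.50 ± 0.10 and -0.32 ± 0.10, adjusted p = 0.119 against estrus and 0.203 against immature oviduct). Dnajb11, the Hsp40 that binds BiP clients directly, differed by -0.44 ± 0.11 from each group (adjusted p = 0.185 against estrus and 0.11 against immature oviduct). Hsp90b1, the ER Hsp90 called Grp94, and Hyou1, the exchange factor of BiP, differed by -0.27 ± 0.07 and -0.23 ± 0.10 for diestrus minus immature (adjusted p = 0.123 and 0.34). Hspa13 and Dnajb9 overlapped between diestrus and immature oviduct.

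Among ER lectin chaperones, disulphide isomerases and related proteins, Creld2 differed most. Creld2, a protein induced by ER stress, had 11.77, 11.70 and 11.77 in diestrus, 12.19, 12.41 and 12.23 in estrus and 12.47, 12.11 and 12.10 in immature oviduct. The diestrus arrays lay within 0.1 of each other and below the rest. The differences were -0.53 ± 0.10 against estrus and -0.48 ± 0.10 against immature oviduct (limma adjusted p = 0.0914 and 0.0701). The main glycoprotein-folding genes differed by less. Canx, the membrane-bound lectin calnexin, had 12.95, 12.90 and 13.04 in diestrus, 13.18, 13.01 and 13.09 in estrus and 13.001, 13.11 and 12.88 in immature oviduct, with all groups overlapping. Its soluble relative Calr differed by -0.13 ± 0.05 for diestrus minus immature (adjusted p = 0.288) with no overlap between the arrays. The isomerase genes Pdia4, Pdia6 and Pdia3 differed by -0.17, -0.19 and -0.01 in that comparison, with adjusted p between 0.344 and 0.968. Pdia6 had 11.39, 11.28 and 11.54 in diestrus, 11.52, 11.53 and 11.54 in estrus and 11.73, 11.60 and 11.46 in immature oviduct. Of the 7 ER members with the ER stress element, Hspa5, Hsp90b1, Dnajc3, Creld2 and Calr were among those with diestrus below all other arrays, and Canx and Pdia6 were not. Of the ER members searched that lacked it, Dnajb11, Pdia4 and Sdf2l1 were among them, and Dnajb9, Herpud1 and Pdia3 were not. In the whole ER set 10 of 16 were, and a link of the element to these values was not tested.

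Herpud1, which helps to remove misfolded proteins from the ER, had 11.41, 11.25 and 11.18 in diestrus, 11.51, 12.07 and 11.65 in estrus and 11.74, 11.10 and 11.58 in immature oviduct. Its diestrus arrays lay below the estrus arrays and overlapped the immature ones (differences -0.47 ± 0.18 and -0.19 ± 0.18, limma adjusted p = 0.419 and 0.705). Manf, a secreted protein released under ER stress, had 10.37, 10.18 and 10.25 in diestrus, 10.48, 10.62 and 10.66 in estrus and 10.76, 10.41 and 10.39 in immature oviduct. Its diestrus arrays lay below all others by a small margin (differences -0.32 ± 0.10 and -0.25 ± 0.10, adjusted p = 0.316 and 0.321).

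None of the regulators passed the test. RNA level is only part of how these factors are controlled: Xbp1 works after splicing of its RNA, Atf6 after cleavage and Atf4 through translation, and gene-level intensities do not show those steps. Of 5 measured regulators 2 had lower and 3 higher means in diestrus than in immature oviduct, with a median of 0.03, and 4 had lower means in diestrus than in estrus, with a median of -0.13. None had arrays apart between any pair of groups. Xbp1 had 12.44, 12.44 and 12.30 in diestrus, 12.29, 12.32 and 12.36 in estrus and 12.41, 12.32 and 12.36 in immature oviduct. Its difference was 0.03 ± 0.06 against immature oviduct and 0.07 ± 0.06 against estrus (limma adjusted p = 0.879 and 0.881). Ddit3, the stress factor Chop, had 9.30, 9.35 and 9.24 in diestrus, 9.30, 9.69 and 9.29 in estrus and 9.33, 9.16 and 9.15 in immature oviduct, with estrus 2 above the other 8. Hsf2, a heat shock factor, had 10.03, 10.04 and 10.22 in diestrus, 10.24, 10.34 and 10.14 in estrus and 10.16, 10.36 and 10.44 in immature oviduct, with overlapping groups (difference -0.22 ± 0.09 against immature oviduct, adjusted p = 0.316). Atf4 and Atf6 differed by -0.06 ± 0.08 and 0.05 ± 0.07 for diestrus minus immature (adjusted p = 0.789 and 0.801).

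**Figure D3:**
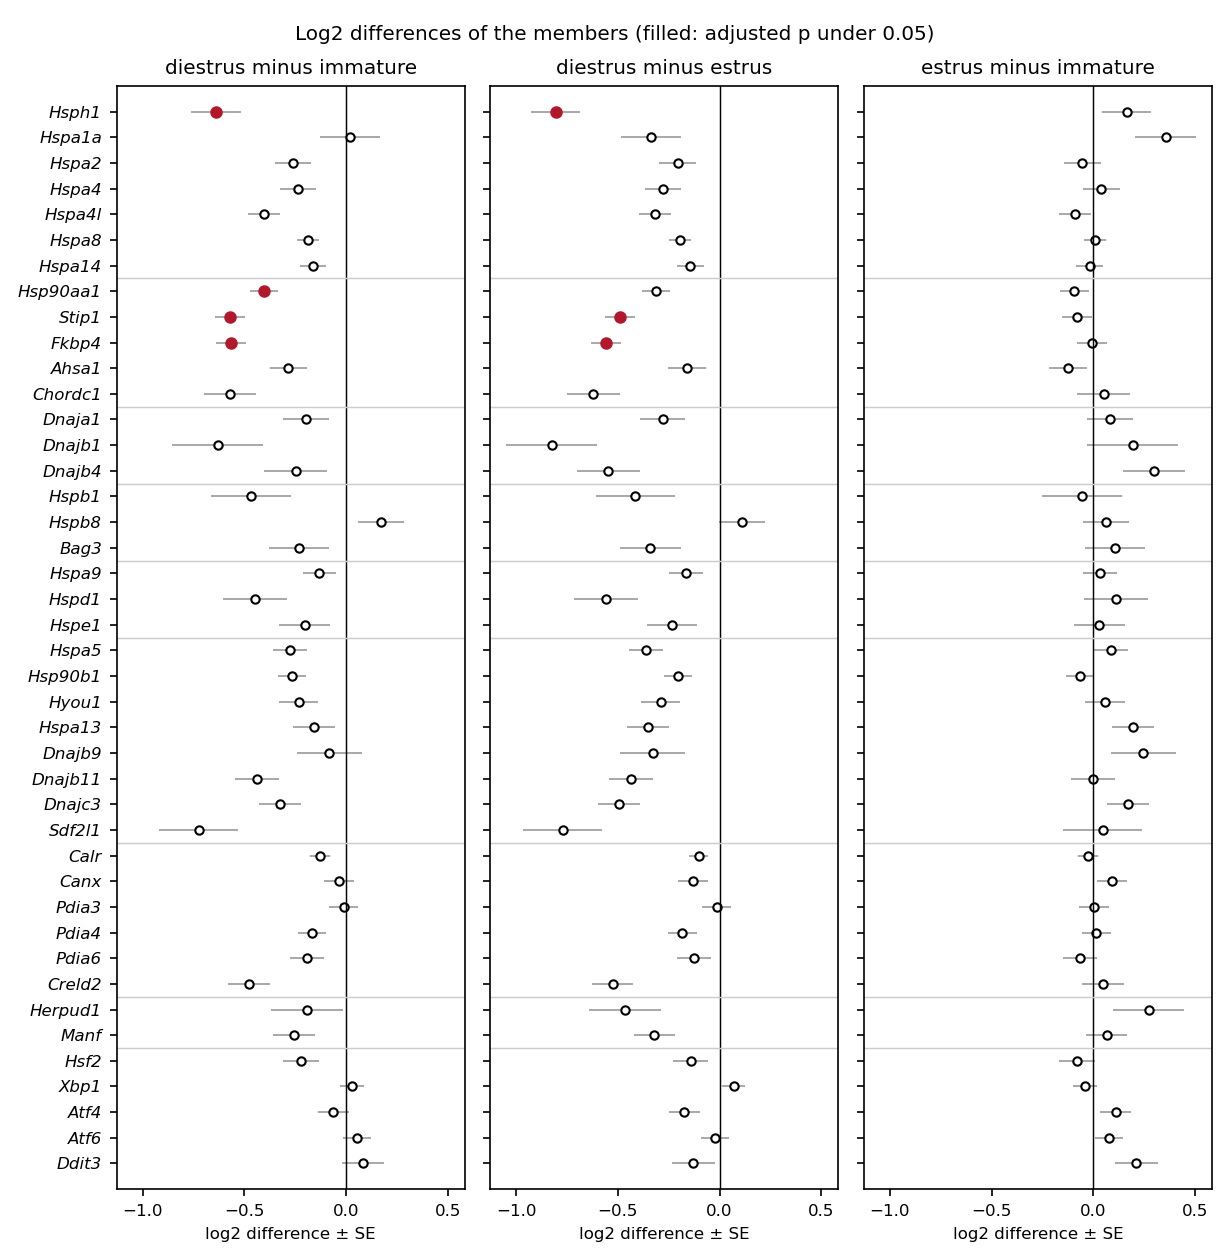
Log2 differences ± SE of the 42 members (rows, grey lines separating compartments) for diestrus minus immature, diestrus minus estrus and estrus minus immature, with filled points at an adjusted p under 0.05. Filled points mark 4, 3 and 0 members, and most points of the first and second panels lie left of 0.

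Between estrus and immature oviduct the members differed by -0.12 (Ahsa1) to 0.36 (Hspa1a), and adjusted p ran from 0.752 to 0.999. Their arrays overlapped in 42 of 42 members. The highest of the 9 values fell on estrus 2 for 17 members and on immature 1 for 12, and the lowest fell on diestrus 2 for 19. Without estrus 2 the median difference of estrus minus immature was -0.02. The median SD of the members within a group was 0.118 in diestrus, 0.115 in estrus and 0.117 in immature oviduct, against 0.083, 0.092 and 0.076 for probe sets with a mean above the median of all.

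Further genes of protein folding had medians nearer to 0 than the members in the diestrus comparisons. These lists, like the members, were chosen with earlier results of these data known, so the contrast can follow from the choice and was not tested. Of 28 other cytosolic chaperones and cochaperones, 2 fell in diestrus against immature oviduct and 1 against estrus, where 0.705% and 0.0922% of all probe sets fell. The median difference was -0.07 in each, with 24 of 28 means lower in diestrus than in immature oviduct and 22 lower than in estrus. Arrays lay lower without overlap in 10 and 7 of the 28, against 10.9% and 6.85% of all probe sets. Cacybp, which carries a domain found in Hsp90 cochaperones, had 11.72, 11.65 and 11.78 in diestrus, 12.35, 12.49 and 12.23 in estrus and 12.23, 12.18 and 12.01 in immature oviduct. The diestrus arrays lay below the other 6, and Cacybp fell by 0.64 ± 0.08 against estrus and by 0.42 ± 0.08 against immature oviduct (limma adjusted p = 0.0229 and 0.0496). Hspbp1, an exchange factor of Hsp70, fell by 0.35 ± 0.07 against immature oviduct (adjusted p = 0.0498). Ppid, a cyclophilin bound to Hsp90, differed by -0.40 ± 0.09 against estrus (adjusted p = 0.16).

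No gene passed in the other lists. The CCT ring and prefoldin had 12 of 14 lower means in diestrus than in immature oviduct (median -0.17), with Cct3 and Cct6a at -0.39 ± 0.14 and -0.35 ± 0.10 (limma adjusted p = 0.273 and 0.173). Mitochondrial proteases and further chaperones had 12 of 12 lower means with a median of -0.06, and Trap1 and Dnaja3 differed by -0.16 and -0.14. Sensors and degradation genes of the ER had 11 of 15 lower means (median -0.07). Syvn1, the ubiquitin ligase of ER degradation, and Edem1 differed by -0.39 ± 0.20 and -0.24 ± 0.12. Further genes of ER folding and entry had 12 of 19 lower means with a median of -0.02, with Txndc11 and Ero1b at -0.15 and 0.09. Differences in that list ran from -0.19 to 0.19 for diestrus minus immature. Targets of the integrated stress response had 12 of 17 lower means (median -0.06), with Nupr1 at 0.61 ± 0.12 and Slc7a11 at -0.34 ± 0.12 (adjusted p = 0.0577 and 0.263). The cold-induced RNA-binding genes Cirbp and Rbm3, known to be induced by mild cold, differed by 0.43 ± 0.12 and -0.10 ± 0.09 for diestrus minus immature (adjusted p = 0.162 and 0.7).

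**Figure D4:**
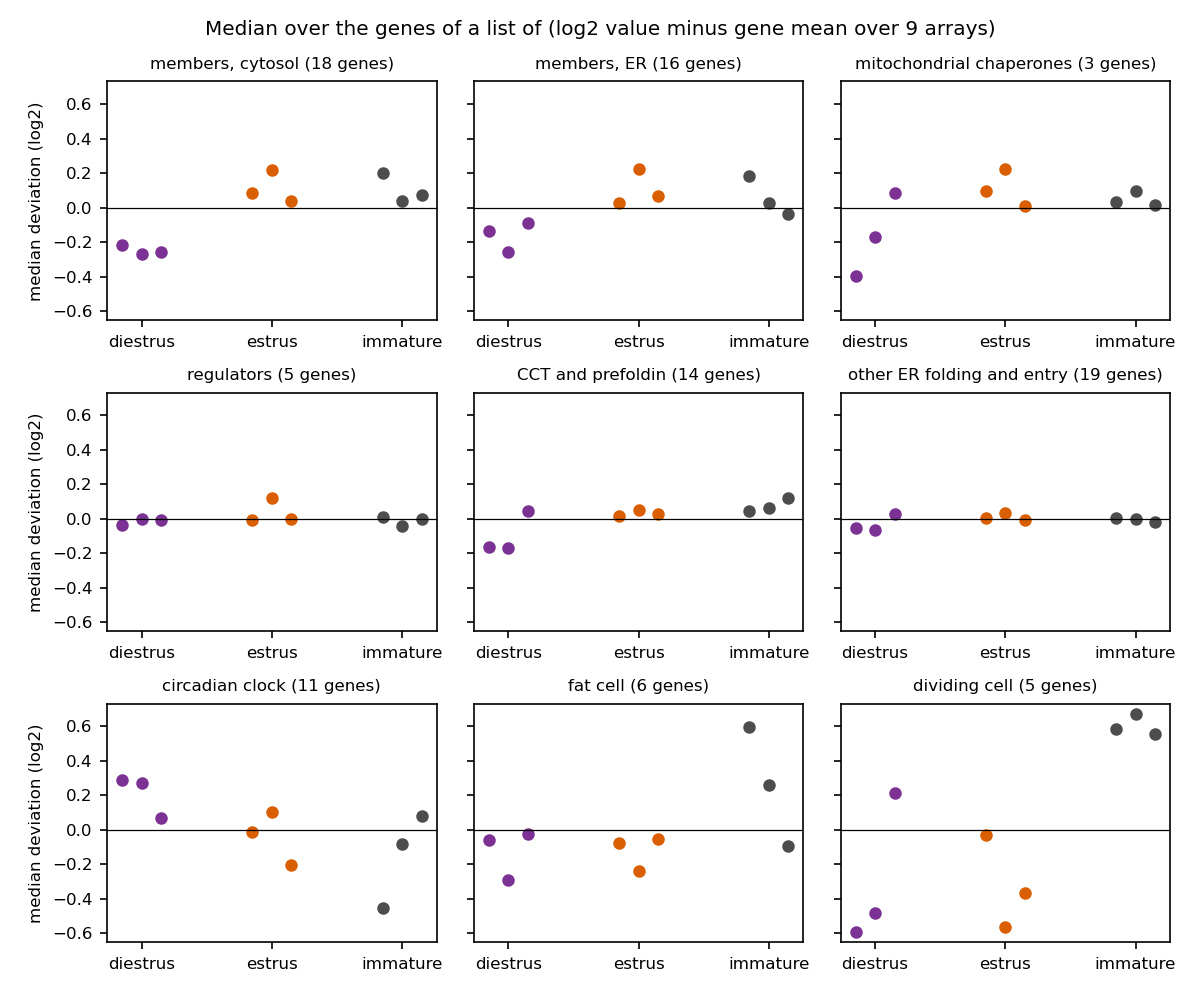
For 9 gene lists (panels), the median over the list's genes of the log2 value minus the gene's mean over 9 arrays, 1 point per array, with diestrus, estrus and immature pools from left to right. The cytosolic members lie between -0.269 and -0.215 on the diestrus arrays and at 0.037 or above on the others, while clock, fat cell and dividing cell genes differ between groups or single arrays in other ways.

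Clock genes and marker genes of other cells moved with some of these arrays, and their part in the results was not tested. On the scale of log2 summed intensity, 11 measured circadian clock genes stood at 13.86 to 14.15 in diestrus, 13.42 to 13.87 in estrus and 13.27 to 13.84 in immature oviduct. The summed level of 5 dividing cell markers was 11.16 to 11.98, 11.11 to 11.72 and 12.22 to 12.33 in diestrus, estrus and immature oviduct, with diestrus 3 the highest of the mature arrays. The 6 fat cell markers stood at 10.86 to 11.15 in diestrus, 10.95 to 11.13 in estrus and 11.08 to 11.93 in immature oviduct, highest on immature 1. The 10 ovarian markers reached 13.27 on diestrus 2 and 13.28 on immature 2, against at most 12.18 on the others. Of these 10, 1 was called higher in diestrus against immature oviduct (limma adjusted p = 0.0463), where 0.294% of all probe sets rose. Of the ovarian markers 2 lay below the array median on all 9 arrays, as did 3 posterior Hox, 2 fat cell and 1 dividing cell genes, and 0 of the clock and smooth muscle genes. Without diestrus 2 and immature 2 the median difference of the members was -0.19 for diestrus minus immature and -0.27 for diestrus minus estrus. In either comparison 0 members were then called. The 6 smooth muscle and 6 posterior Hox markers were highest on diestrus 3, at 15.24 and 11.71, and without it these medians were -0.27 and -0.30.

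Leukocyte, plasma cell and epithelial markers gave narrower ranges of these sums, which single genes need not follow. Of the 9 plasma cell markers, 1 was called higher in diestrus and 1 in estrus against immature oviduct (limma adjusted p = 0.00301 and 0.0182). Over all probe sets 0.294% rose in the first comparison and 0.0851% passed in either direction in the second. Of the 14 immediate early genes, 1 was called higher in diestrus against immature oviduct (adjusted p = 0.0299), where 0.294% of all probe sets rose. The 8 leukocyte markers, 4 of them below the array median on all 9 arrays, stood at 11.73 to 12.15 in diestrus, 11.63 to 11.71 in estrus and 11.60 to 11.74 in immature oviduct. The 9 markers of plasma cells, which have a large ER, stood at 11.95 to 12.04 in diestrus, 11.94 to 11.99 in estrus and 11.78 to 11.84 in immature oviduct, and 5 of the 9 lay below the array median throughout. Of the markers of oviduct epithelium, 1 of the 5 ciliated cell genes and 0 of the 5 secretory genes lay below the array median on all 9 arrays. The 5 secretory markers stood at 14.36 to 14.51 in diestrus, 14.40 to 14.48 in estrus and 14.46 to 14.56 in immature oviduct. The 5 ciliated cell markers stood at 13.90 to 14.10 in diestrus, 13.89 to 14.10 in estrus and 13.97 to 14.29 in immature oviduct. The 14 immediate early genes, listed as possible markers of handling, stood at 13.29 to 13.35 in diestrus, 13.26 to 13.31 in estrus and 13.30 to 13.38 in immature oviduct. Of them, 5 lay below the array median on all 9 arrays, and these sums do not show whether handling was equal.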

How the data were processed

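RNA of whole oviduct, pooled from 5 animals per array per the labels' protocols, was measured on 9 arrays, 3 per group, so p-values measure the spread between pools. Per the submitters' processing notes, Expression Console and RMA were used, and what the authors deposited are log2 intensities. The log base was taken from the range of the values (array medians between 8.85 and 8.90). Probe sets were named from GEO's annotation of the platform. A linear model of the 3 groups without covariates was fitted to all 28214 probe sets (R 4.3.3, limma 3.58.1, moderated two-sided tests). Residual degrees of freedom were 6, those of the prior 3.6, and Benjamini-Hochberg adjustment ran over every probe set. The number of arrays limits the precision, and the median SE of a difference was 0.08. The fit was also run on simulated data with independent noise, unlike arrays that deviate together, and no result here rests on that run. Members and lists were chosen with earlier results of these data known. Values on every array were given for members past the threshold, for the 2 with the largest difference in any comparison and the 1 with the highest mean in each compartment. Genes of other lists were named if called or among the 2 with the largest difference of their list in any comparison. Alternatives were other normalizations, filters and fits, and each array left out. Figures used Python 3.11.15 and matplotlib 3.10.9.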

Additional observations from a re-analysis of the deposited data

How the results depend on the processing

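The median differences of the members moved by less than 0.09 in 15 alternative settings each, and stayed below 0 for diestrus against either group. That limit is the SD of the list's median level between arrays of a group. Leaving out an array of the group not compared could not move a median. With single arrays left out they ran from -0.27 to -0.17 for diestrus minus immature, from -0.33 to -0.24 for diestrus minus estrus and from -0.02 to 0.08 for estrus minus immature. The 4 members called in diestrus against immature oviduct became 2 after quantile normalization again or cyclic loess, 14 with array weights, 0 at an adjusted p under 0.01, 0 without immature 2 and diestrus 2 together, and 0 to 6 with single arrays left out. None was called there without diestrus 2, immature 1 or immature 3. The 3 called in diestrus against estrus became 1 after median centring, 22 with array weights, 0 at an adjusted p under 0.01, 0 without immature 2 and diestrus 2 together, 0 in a fit of only these 6 arrays, and 0 to 4 with single arrays left out. Leaving out diestrus 1, diestrus 2, immature 3 or any 1 estrus array left 0. Same-numbered arrays did not deviate together throughout (correlations -0.29 to 0.17), so the numbers were not taken as pairs. With the replicate number as a block, 3 and 0 members were called in these comparisons, and 0 in estrus against immature oviduct. Estrus against immature oviduct gave 0 calls in 21 of 21 settings. In the 21 alternatives of each call, none of the 4 genes reversed. In many of these the difference could not change, so its sign was fixed in advance. Such settings were the replicate block, the probe set filters, the intensity trend, the stricter threshold and the fit of only 6 arrays. Leaving out an array of the group not compared was another. The causes of these changes were not tested. Counting arrays that do not overlap and the repeats of those counts were chosen after seeing the data. Over all probe sets, array weights raised the calls to 1288 and 3331, against 282 and 45. The number of arrays, 3 per group, limits the precision.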
